A study of Mus musculus with 90 samples.

Results

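The 52 genes described here encode components of the nuclear pore and the receptors that carry cargo through it. They were chosen by name, as the rows of the count table whose gene symbol is on a list of nucleoporins, importins, exportins and proteins of the Ran cycle, and all 52 had a row among the 24422 genes of the table. All 52 were also among the 16511 genes tested. The list holds 8 genes of the Y complex (outer ring), 5 of the inner ring, 2 transmembrane nucleoporins, 2 of the central channel, 5 of the cytoplasmic face, 3 of the nuclear basket, 6 importin alpha genes, 11 of the importin beta family, 6 exportins and 4 genes of the Ran cycle.

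WT and matPlag1KO oocytes at MII, and embryos at the 2c and 8c stages, all from the CD-1 strain, were sequenced singly from the 5′ ends of transcripts, so that a count stands for the 5′ end of a transcript. WT embryos came from WT females mated with WT studs. The matPlag1KO embryos came from Plag1 knockout females mated with WT studs, so they lacked the maternal allele and carried a WT paternal one, whereas matPlag1KO oocytes came from knockout females without mating. All females were superovulated with pregnant mare serum and hCG. Oocytes were collected 21 to 23 h after hCG, and zygotes were cultured in KSOM medium to the 2c stage (45 to 47 h) or the 8c stage (71 to 73 h). The labels do not name the donor females, so embryos of the same mother could not be grouped and p-values measure only the spread between these oocytes and embryos.

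The nuclear pore is a ring-shaped channel in the nuclear envelope. Its outer and inner rings form the scaffold, transmembrane nucleoporins hold it in the membrane, channel nucleoporins form the permeability barrier, and the cytoplasmic face and nuclear basket are docking sites for cargo. Importin alpha proteins recognise the classical nuclear localisation signal and bind importin beta (Kpnb1) as its adaptor, whereas other importins and the exportins bind cargo directly. The GTPase Ran sets the direction of transport, with its exchange factor Rcc1 on chromatin and its GTPase-activating protein Rangap1 in the cytoplasm. The oocyte and early embryo start from stored maternal transcripts, and Kpna7 is known as an importin alpha of the oocyte.

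Of 90 libraries 78 were kept. These were 16 WT and 14 matPlag1KO oocytes, 11 WT and 11 matPlag1KO 2c embryos, and 15 WT and 11 matPlag1KO 8c embryos, which had been sequenced in 2 pools of barcoded samples (libA and libB in the labels, pool A and pool B here). Gene counts in the kept libraries ranged from 92475 to 2502421, with medians of 148473 in WT and 163626 in matPlag1KO at 2c. Plag1, the targeted gene, had a count in 16 of 16 WT and 3 of 14 matPlag1KO oocytes, but in 1 of 11 WT and 9 of 11 matPlag1KO 2c embryos, and in 5 of 15 and 4 of 11 8c embryos. In oocytes these counts follow the labels. The matPlag1KO embryos carry a WT paternal allele, so Plag1 counts do not check the labels at 2c and 8c. The 6 oocyte markers (Zp1, Zp2, Zp3, Gdf9, Bmp15, Mos) summed to a median of 3654 CPM (for marker lists, counts scaled to the library's total) in WT oocytes and 7743 CPM in matPlag1KO oocytes, and to 45.7 and 66.0 CPM in 8c embryos. The 5 genes of the 2c list (such as Zscan4c) summed to a median of 0.911 CPM in WT oocytes and 274 CPM in WT 2c embryos. At 8c this sum was 221 CPM in WT and 200 CPM in matPlag1KO, although Zscan4c and Zscan4d were at 0. The sum therefore parts 2c embryos from oocytes and not clearly from 8c embryos. The 8c list had medians of 664, 391 and 1267 CPM in WT at MII, 2c and 8c. In matPlag1KO these were 517, 429 and 495 CPM, so this list does not mark the stage there. Of 9 cumulus cell markers, 3 had a count in WT and 4 in matPlag1KO oocytes (summed medians 16.6 and 13.1 CPM, ranges 0 to 42.4 and 7.33 to 37.0), and Ptgs2, Ptx3, Tnfaip6, Foxl2 and Cd44 were at 0 in both. Of 4 blood markers, Hbb-b1, Hbb-b2 and Ptprc were at 0 in every group. Hba-a1, the remaining 1, was at 0 in matPlag1KO at every stage and had counts in WT at every stage. Its median was 0 CPM in each WT group, and its highest values were 1.60 CPM at MII, 13.2 at 2c and 1.91 at 8c. The part of such cells in the results was not tested.

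The members were widely detected. Of the 52, 33 had a count in every WT oocyte, 34 in every WT 2c embryo and 42 in every WT 8c embryo, and the median library of these groups held 45.5, 47 and 51 of them. In matPlag1KO the numbers in every library were 39, 35 and 45. Every member had a count in at least 1 library of each group, except Kpna4 in matPlag1KO oocytes. Scaled to the spike-in RNA added to each sample, the summed counts of all 52 ranged from 165 to 1389 in WT oocytes (median 366), from 52.6 to 147 in WT 2c embryos (median 94.2) and from 109 to 358 in WT 8c embryos (median 299), as counts per 1000 spike-in counts. In matPlag1KO the medians were 483, 105 and 189. These are values per embryo, so the number of cells and the RNA per cell cannot be told apart.

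**Figure D1:**
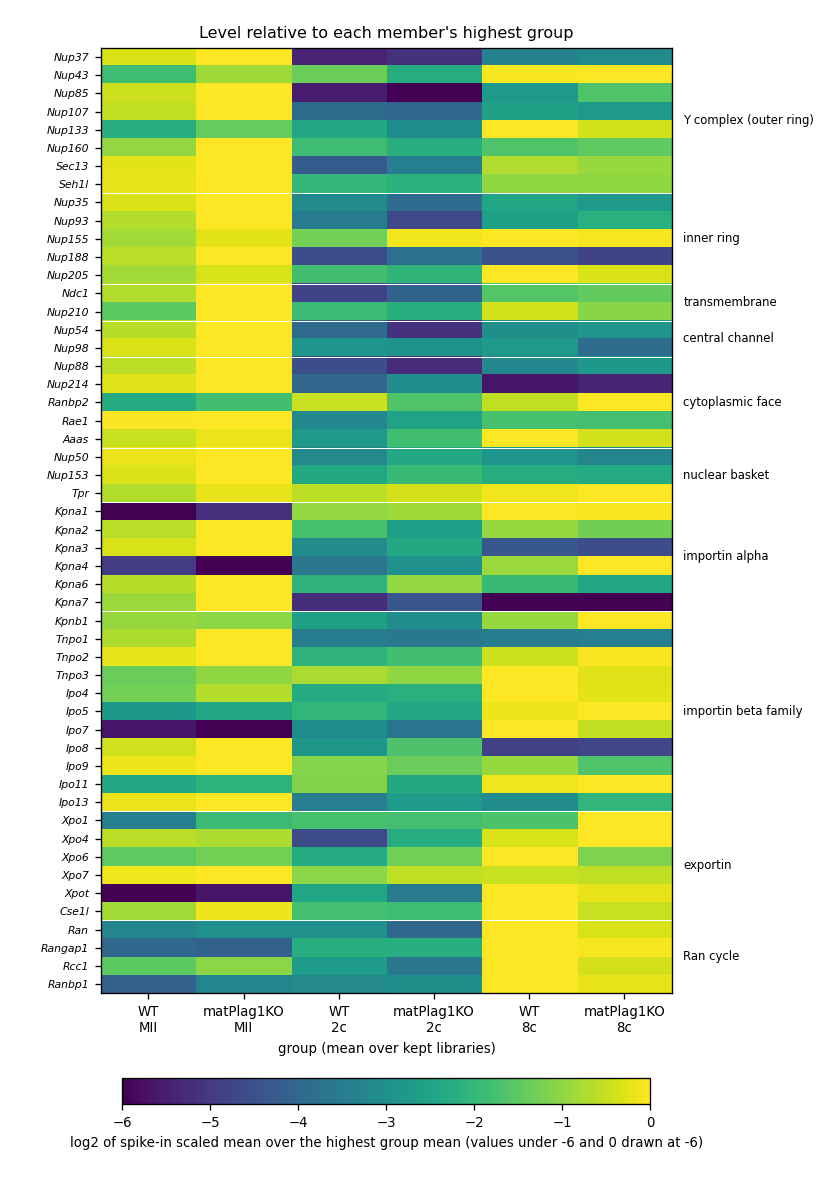
Heat map of the 52 members (rows, ordered by role) in the 6 groups (columns). Colour is the log2 of the mean count scaled to spike-in RNA relative to the member's highest group mean, with values under -6 drawn at -6. Most rows are brightest in oocytes or 8c embryos and darkest at 2c, whereas Kpna1, Ipo7 and Xpot are darkest in oocytes and Kpna7 is darkest at 8c.

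From MII to 2c in WT, 29 members fell and 7 rose on the spike-in scale, where a call here and below is an adjusted p under 0.05 by the quasi-likelihood test of edgeR. Among all tested genes 51.3% fell and 14.1% rose, so the members were close to the rest of the transcriptome in the share that fell. The median log2 fold change of the members was -1.30 and that of all genes -1.46. With TMM scaling, which takes most genes as unchanged, 17 members rose and 17 fell, whereas 4540 of all 16511 genes rose and 3814 fell.

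The steepest falls were in structural genes and in Kpna7. Nup37, a peripheral subunit of the Y complex, had between 4.93 and 24.2 counts per 1000 spike-in counts in WT oocytes (median 16.3) and between 0.119 and 0.837 in WT 2c embryos (median 0.431). The groups did not overlap, and the log2 fold change was -5.05 ± 0.38 (SE; adjusted p = 1.56e-20). Nup85, a core subunit of the same complex, went from 0.334 to 49.3 (median 4.49) in oocytes to 0 to 0.778 (median 0.206) at 2c, with some overlap between the lowest oocytes and the highest embryos (log2 fold change -5.03 ± 0.61, adjusted p = 1.38e-11). Ndc1, a transmembrane nucleoporin that anchors the pore, had a median of 1.87 in oocytes (range 0 to 20.6) and 0.0912 at 2c (range 0 to 0.752), a log2 fold change of -3.99 ± 0.77 (adjusted p = 4.23e-06). Sec13, which the Y complex shares with the COPII coat of secretory vesicles, fell from a median of 5.85 (range 0.418 to 27.0) to 0.526 (range 0.216 to 1.19), with overlap, a log2 fold change of -3.97 ± 0.42 (adjusted p = 9.02e-14).

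Members that rose over the same interval were mostly transport factors. Rangap1, the GTPase-activating protein of Ran, had a median of 0.260 in WT oocytes (range 0 to 1.52) and 1.58 in WT 2c embryos (range 0.303 to 2.52), a log2 fold change of 1.71 ± 0.48 (adjusted p = 0.00115). Ranbp2, the large cytoplasmic nucleoporin that binds SUMO-modified Rangap1, rose from a median of 0.269 (range 0 to 0.843) to 0.846 (range 0 to 1.96), a log2 fold change of 1.75 ± 0.48 (adjusted p = 0.000912). Both genes overlapped between the stages. Ipo7, an importin for ribosomal proteins among other cargo, was counted in 6 of 16 oocytes and in 11 of 11 2c embryos, and its log2 fold change was 2.43 ± 0.72 (adjusted p = 0.00173). In pool A alone Rangap1 (1.11), Ranbp2 (0.83) and Ipo7 (1.52) kept the direction and were not called. Xpot, the exportin for tRNA, had 3 counts over 16 WT oocytes and 26 over 11 2c embryos, 13.4 times more per spike-in count (95% counting interval 4.10 to 69.1), with an adjusted p of 3.12e-05. Xpo1 and Ipo11 were the other members that rose, apart from Kpna1.

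From 2c to 8c in WT, 29 members rose and 4 fell on the spike-in scale, against 31.9% and 16.2% of all tested genes. The median log2 fold change was 1.26 for the members and 0.53 for all genes. With TMM scaling 17 members rose and 6 fell, whereas 3475 of all genes rose and 4767 fell, so the split among the members kept its order when the gain of RNA was scaled away. All 4 genes of the Ran cycle and 7 of the 8 Y complex genes were among those that rose. None of the 3 nuclear basket genes was called in this comparison.

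The CPM of members, here and below, use library totals adjusted by TMM, unlike the sums of marker lists. Ran, the GTPase of the transport cycle, had between 147 and 1098 CPM (median 500.4) in WT 2c embryos and between 1631 and 3190.3 CPM (median 2332) in WT 8c embryos, with no overlap. Its log2 fold change on the spike-in scale was 2.98 ± 0.33 (adjusted p = 7.35e-13), and counts of Ran are uncertain in that near-identical copies of the gene exist elsewhere in the genome. Ranbp1, a Ran-binding cofactor of GTP hydrolysis, rose from a median of 0.667 counts per 1000 spike-in counts (range 0.115 to 1.51) to 6.74 (range 2.16 to 9.80), again without overlap (log2 fold change 3.16 ± 0.50, adjusted p = 7.81e-08). Sec13 rose from the 2c values above to a median of 7.65 (range 4.56 to 15.3), beyond every 2c embryo (3.51 ± 0.41, adjusted p = 8.85e-12). Ndc1 reached a median of 1.4997 (range 0.0944 to 5.83), overlapping the 2c embryos (3.06 ± 0.76, adjusted p = 0.000353). Ipo7 reached a median of 2.08 with a range of 1.017 to 55.5 and a mean of 9.43, so that the highest embryos lay far above the median (3.07 ± 0.71, adjusted p = 0.000186).

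Xpo4, an exportin that also imports some transcription factors, had the largest log2 fold change from 2c to 8c among the members in WT. It was counted in 4 of 11 WT 2c embryos, with 9 counts in all, and in 15 of 15 WT 8c embryos. The highest 2c value was 0.478 and the lowest 8c value 0.728 counts per 1000 spike-in counts, and the log2 fold change was 4.11 ± 0.60 (adjusted p = 2.95e-09). From MII to 2c the same gene had fallen, with a log2 fold change of -3.87 ± 0.59 (adjusted p = 8.60e-09).

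The members that fell from 2c to 8c in WT were Kpna7, Ipo8, Nup214 and Kpna3, and each of them had already fallen from MII to 2c. Ipo8, an importin of the same branch as Ipo7, went from a median of 6.27 counts per 1000 spike-in counts in oocytes (range 2.14 to 56.5) to 1.29 at 2c (range 0.606 to 3.59) and 0.264 at 8c (range 0 to 1.68). Its second step was a log2 fold change of -2.00 ± 0.44 (adjusted p = 7.09e-05). Nup214, a docking nucleoporin of the cytoplasmic face, went from 92.4 (range 25.4 to 478) to 10.3 (range 3.001 to 21.1) and 2.99 (range 0.560 to 7.60), and its second step was -1.61 ± 0.39 (adjusted p = 0.000348). The ranges of Nup214 in oocytes and 2c embryos did not overlap. Kpna3, an importin alpha, went from 9.65 (range 4.17 to 61.9) to 1.75 (range 0.445 to 5.35) and 0.685 (range 0 to 2.37), with a second step of -1.27 ± 0.40 (adjusted p = 0.00580). Overlapping annotated genes share the strand with Nup214 (Mir7674) and Ipo7 (Snora23), and their reads could not be told apart.

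**Figure D2:**
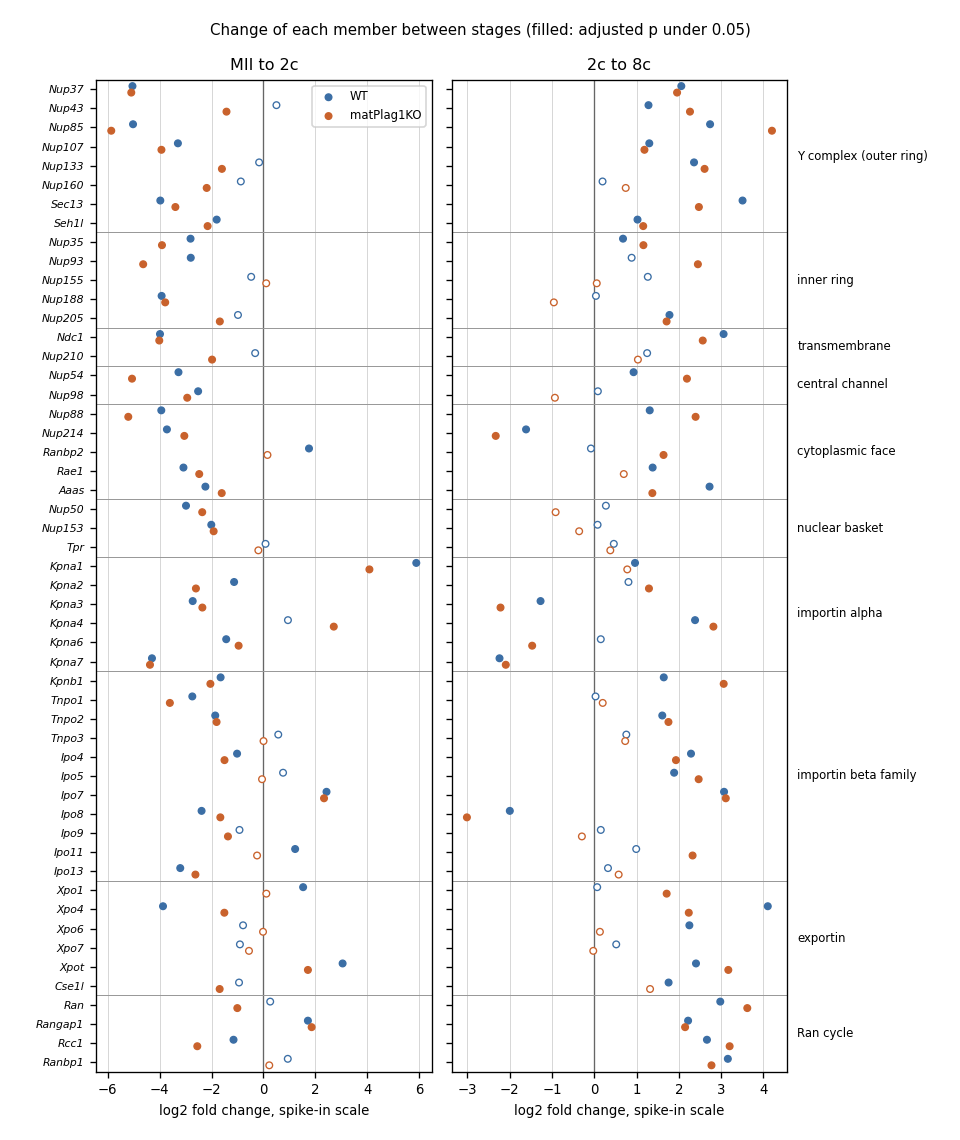
Log2 fold change on the spike-in scale (x axis) of each of the 52 members (rows, by role) from MII to 2c (left) and from 2c to 8c (right), in WT (blue) and in matPlag1KO (orange), with filled points for an adjusted p under 0.05. Points lie mostly left of 0 on the left and right of 0 on the right, and Kpna7, Ipo8, Nup214 and Kpna3 lie left of 0 in both panels.

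The calls of both intervals were combined into a course for each gene. In WT, 16 members (30.8%) fell and then rose, as did 15.8% of all tested genes. They were Aaas, Ipo4, Kpnb1, Ndc1, Nup107, Nup35, Nup37, Nup54, Nup85, Nup88, Rae1, Rcc1, Sec13, Seh1l, Tnpo2 and Xpo4. Another 9 members fell without a later call (17.3%, against 25.6% of all genes), and 4 fell in both intervals (7.69%, against 9.91%). In 9 members the rise from 2c to 8c was the only call (17.3%, against 11.6%), in 3 it was the rise from MII to 2c (5.77%, against 6.71%), and 7 had no call (13.5%, against 19.5%). Kpna1, Ipo7, Rangap1 and Xpot rose in both intervals (7.69%, against 4.51%). The 2c libraries enter both comparisons, so the calls that make up a course are not independent.

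In matPlag1KO the same comparisons gave 37 members that fell and 5 that rose from MII to 2c (50.3% and 13.5% of all genes), and 30 that rose and 5 that fell from 2c to 8c (29.1% and 19.5%). The median log2 fold changes were -1.75 and 1.35, and those of all genes were -1.42 and 0.30. With TMM scaling 17 members rose and 15 fell in the first interval, and 22 rose and 10 fell in the second. Of all genes, 4799 rose and 3192 fell in the first interval under TMM, and 3501 rose and 5008 fell in the second. On the spike-in scale 21 members (40.4%) of matPlag1KO fell and then rose, against 14.4% of all genes. Ipo8, Kpna3, Kpna7 and Nup214 fell in both intervals in matPlag1KO as in WT, and Kpna6 did so in matPlag1KO, so that 5 members (9.62%) fell in both intervals there, against 11.5% of all genes.

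The 6 importin alpha genes took different courses, which are given per library in the plot of these genes. Kpna7 (chr5:145744613-145770505, minus strand, build mm9) had between 2.85 and 69.3 counts per 1000 spike-in counts in WT oocytes (median 6.84), between 0 and 3.35 at 2c (median 0.539) and between 0 and 0.700 at 8c (median 0). In matPlag1KO the medians were 11.3, 1.22 and 0.213. The summed counts per spike-in count were 21.5 times lower in WT 2c embryos than in WT oocytes and 20.1 times lower in matPlag1KO. The log2 fold change from MII to 2c was -4.30 ± 0.67 (adjusted p = 3.88e-08) in WT and -4.37 ± 0.66 (adjusted p = 2.44e-08) in matPlag1KO. From 2c to 8c it was -2.24 ± 0.67 (adjusted p = 0.00262) and -2.09 ± 0.69 (adjusted p = 0.00729). The fall to 8c was called in WT in pool B (-2.19) but not in pool A (-2.19, adjusted p = 0.0876), and in matPlag1KO in pool A (-2.59) but not in pool B (-1.65, adjusted p = 0.113). With TMM scaling the first step was smaller (-2.63 in WT) and the second larger (-3.25), and both were called.

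Kpna1 (chr16:35983449-36036248, plus strand, mm9), an importin alpha of wide expression, took the opposite course. It had 1 count over 16 WT oocytes and 111 counts over 11 WT 2c embryos, in each of which it was counted. That was 172 times more per spike-in count, with a 95% counting interval of 30.2 to 6835 (adjusted p = 9.71e-16). In matPlag1KO it had 8 counts in oocytes and 127 at 2c, a log2 fold change of 4.08 ± 0.53 (adjusted p = 2.68e-11). From 2c to 8c the log2 fold change was 0.96 ± 0.41 in WT (adjusted p = 0.0412) and 0.78 ± 0.43 in matPlag1KO (adjusted p = 0.123), where it was not called. Kpna4 was nearly absent in oocytes, with 3 counts in WT and none in matPlag1KO, which allows up to 3 counts over the group. It had 5 and 7 counts at 2c and 51 and 61 at 8c. Per spike-in count, the 7 counts in matPlag1KO 2c embryos were 3.05 times this floor, a ratio that leaves out the counting error of the 7.

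Kpna2, an importin alpha that is abundant in dividing cells, was the leading gene of the family in 11 of 16 WT oocytes, 10 of 11 WT 2c embryos and 15 of 15 WT 8c embryos. Of the counts on the 6 genes, Kpna2 took a median of 53.3% in WT oocytes (range 17.3% to 85.7%), 79.1% at 2c (35.4% to 91.5%) and 88.1% at 8c (76.6% to 91.5%). Kpna7 took a median of 21.2% in WT oocytes (range 2.10% to 63.3%) and 2.54% at 2c. Kpna3 took 18.9%, 7.96% and 2.21% at the same stages. Kpna1 rose from 0% to 3.85% and 5.13%, and no WT oocyte exceeded 0.0445%. In matPlag1KO 2c embryos Kpna2 took a median of 53.0%, Kpna3 of 19.8% and Kpna6 of 16.4%, against 79.1%, 7.96% and 5.43% in WT. Neither Kpna2 nor Kpna3 was called between the genotypes at 2c, in edgeR or in DESeq2. The difference in Kpna6 was not called in edgeR (log2 fold change 0.96 ± 0.37, adjusted p = 0.101) and was called higher by DESeq2. Kpna2 counts share the uncertainty given above for Ran, since near-identical copies of it exist in the genome.

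**Figure D3:**
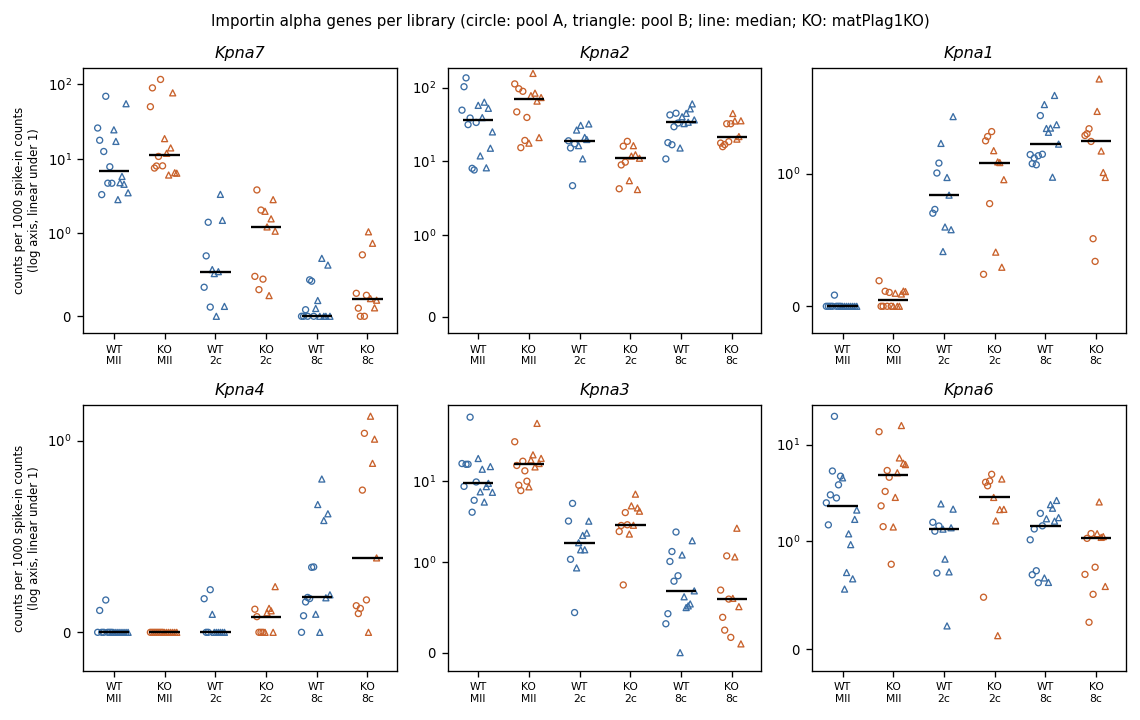
Counts per 1000 spike-in counts (y axis, logarithmic above 1 and linear below) of the 6 importin alpha genes in each kept library (circles for pool A, triangles for pool B) of the 6 groups (x axis), with a line at the median. Kpna7 falls from medians of 6.84 and 11.3 in oocytes to near 0 at 8c, whereas Kpna1 is at or near 0 in oocytes and counted in every embryo.

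The promoters of Kpna7 and Kpna1 are printed because these genes ran in opposite directions. Each sequence covers 250 bases before and 50 bases from the start of the gene in the deposited table, read from mm9, with CpG dinucleotides in capitals.
Kpna7 (chr5:145770456-145770755, minus strand): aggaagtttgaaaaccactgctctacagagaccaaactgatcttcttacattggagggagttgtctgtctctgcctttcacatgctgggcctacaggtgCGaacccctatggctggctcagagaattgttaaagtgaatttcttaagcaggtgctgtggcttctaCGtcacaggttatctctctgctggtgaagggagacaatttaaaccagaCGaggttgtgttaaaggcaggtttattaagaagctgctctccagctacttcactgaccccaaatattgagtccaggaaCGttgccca
Kpna1 (chr16:35983199-35983498, plus strand): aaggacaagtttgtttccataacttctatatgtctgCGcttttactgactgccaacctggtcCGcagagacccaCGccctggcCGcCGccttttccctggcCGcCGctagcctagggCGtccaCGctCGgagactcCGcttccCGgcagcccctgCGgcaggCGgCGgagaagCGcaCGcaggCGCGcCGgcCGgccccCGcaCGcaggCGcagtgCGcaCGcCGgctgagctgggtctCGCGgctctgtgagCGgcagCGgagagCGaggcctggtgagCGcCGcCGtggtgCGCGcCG
Kpna7 had 4 CpG in this window, the lowest number of the 52 members, and 15.1% of all tested genes had 4 or fewer. Kpna1 had 38. The median was 27.5 over the members (quartiles 19.75 and 35) and 18 over all tested genes (quartiles 8 and 27). The GC content was 46.7% for Kpna7 and 70.3% for Kpna1. In the same windows, searched on both strands, the CCAAT box (CCAAT) was found in 24 of 52 members (46.2%) and in 38.4% of all genes, the GC box (GGGCGG) in 34 (65.4%) and 57.3%, and the E-box (CACGTG) in 10 (19.2%) and 9.24%. The TATA box letters (TATAAA) were in 3 members (5.77%) and in 8.51% of all genes. Those of the NOBOX element (TAATTG) were in 1 member (Kpna6, 1.92%) and in 5.14% of all genes. These are matches of letters only.

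Between the genotypes in MII oocytes, no member was called in edgeR's quasi-likelihood test, and 0.781% of all tested genes were. Of the 52, 3 members had an unadjusted p under 0.05, against 10.2% of all genes, and DESeq2 called 0. Of all genes DESeq2 called 33 higher and 49 lower in oocytes. Nup43, a subunit of the Y complex, had between 3.78 and 59.6 CPM in WT oocytes (median 20.1) and between 17.5 and 95.1 CPM in matPlag1KO oocytes (median 46.9). The ranges overlapped, and the log2 fold change was 0.75 ± 0.28 (adjusted p = 0.229). Kpna7 differed by 0.32 ± 0.40 (adjusted p = 0.919), and this difference turned from 1.11 in pool A to -0.55 in pool B. The differences of Kpna7 at 2c (0.56 ± 0.53, adjusted p = 0.555) and 8c (0.95 ± 0.65, adjusted p = 0.529) were not called either.

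In oocytes all 14 position codes with a kept library in both pools held opposite genotypes, so the position and the genotype cannot be told apart within a pool. The summed oocyte markers had a median of 3654 CPM in WT (range 1686 to 16527) and 7743 CPM in matPlag1KO oocytes (range 2034 to 13778), and their part in the differences was not tested. There 33 of the 52 members differed in sign between the pools, compared with 16 at 2c and 15 at 8c. Of the position codes shared by kept libraries of both pools, 6 of 8 at 2c and all 12 at 8c held the same genotype in both. Comparing the pools therefore does not tell position from genotype at these stages either, and the part of position was not tested. In oocytes Tnpo1, a transportin, was called higher in pool A (2.69) and lower in pool B (-2.21), where its highest values were 8647 CPM in a matPlag1KO and 10552 CPM in a WT oocyte, respectively. Nup160 was called higher in pool A (2.20) and had the opposite sign in pool B (-1.14, adjusted p = 0.179), where it was not called. In a fit that took the position as replicate block together with a pool term, 2 members were called higher in matPlag1KO oocytes. The same fit called 658 of all 16511 tested genes higher and 151 lower, so nothing is read from this count of members. The members were Nup43 (0.78, adjusted p = 0.0237) and Nup188, a scaffold nucleoporin of the inner ring (0.66, adjusted p = 0.00177, and 0.59 with adjusted p = 0.580 without the block).

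At 2c, 6 of the 52 members were called (11.5%), against 4.92% of all tested genes. Ran, Rcc1, Nup43, Nup54 and Nup35 were lower in matPlag1KO embryos and Xpo4 was higher, whereas 2.62% of all genes were lower and 2.3% higher. At an unadjusted p under 0.05 there were 15 members and 20.5% of all genes. The median log2 fold change was -0.16 over the members and 0.12 over all genes. DESeq2 called 9 members, 5 higher and 4 lower, and of all 16511 genes it called 733 higher and 401 lower. It called 5 of these 6, left out Nup54 (adjusted p = 0.0525), and added Ipo8, Nup214, Aaas and Kpna6, all higher. With spike-in totals as library sizes, which moved the median of all genes to 0.28, only Xpo4 was called. That setting called 191 of all genes higher and 94 lower. The 6 genes were not called in pool A (adjusted p between 0.491 and 0.648), and in pool B only Ran was. In pool A alone 0 of all 15073 genes tested there were called, so the missing calls are not particular to these members. Pool B alone called 150 of 15161 genes higher and 352 lower.

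Ran ranged from 147 to 1098 CPM in WT 2c embryos (median 500.4) and from 106 to 669 CPM in matPlag1KO (median 219). The ranges overlapped, with 3 matPlag1KO embryos below every WT embryo, and the log2 fold change was -1.11 ± 0.29 (adjusted p = 0.0160). Within pools it was -0.81 in A and -1.45 in B. Rcc1, the exchange factor that loads Ran with GTP, had a median of 54.6 CPM in WT (range 25.02 to 74.7) and of 18.4 CPM in matPlag1KO (range 7.06 to 64.7). Of the matPlag1KO embryos, 9 of 11 were below every WT embryo (-1.10 ± 0.34, adjusted p = 0.0422; -0.96 in pool A and -1.35 in pool B). The other genes of the Ran cycle, Rangap1 (-0.14) and Ranbp1 (0.02), were not called.

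The nucleoporins that were lower belong to different parts of the pore. Nup43 had a median of 144 CPM in WT (range 68.9 to 225) and of 56.4 CPM in matPlag1KO (range 0 to 146), with 6 matPlag1KO embryos below every WT embryo (-1.04 ± 0.33, adjusted p = 0.0474). Nup54, a nucleoporin of the central channel, had between 7.07 and 86.6 CPM in WT (median 32.8) and between 0 and 32.6 in matPlag1KO (median 7.70). All 11 matPlag1KO embryos lay below the WT median (-1.35 ± 0.42, adjusted p = 0.0395). Nup35, which links the inner ring to the membrane, had between 103 and 328 CPM in WT (median 191) and between 31.8 and 199.8 in matPlag1KO (median 111), and 10 of 11 lay below the WT median (-0.92 ± 0.28, adjusted p = 0.0416). Within pools these 3 genes kept their direction, with log2 fold changes from -1.98 (Nup54, pool A) to -0.74 (Nup35, pool A). At 2c 6 of 8 shared position codes held the same genotype in both pools. A like direction in the pools therefore does not tell position from genotype, for these genes or the other members called at 2c.

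Xpo4 went the other way. It had 9 counts in 4 of 11 WT embryos, with a range of 0 to 27.7 CPM and a median of 0, and 50 counts in 10 of 11 matPlag1KO embryos, with a range of 0 to 45.9 CPM and a median of 20.1. The log2 fold change was 2.12 ± 0.61 (adjusted p = 0.0216; 1.82 in pool A and 2.25 in pool B). The other 46 members were not called in edgeR, and Nup93 (-1.48), Ipo11 (-1.35) and Ipo8 (0.95) had adjusted p values between 0.0740 and 0.0751.

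**Figure D4:**
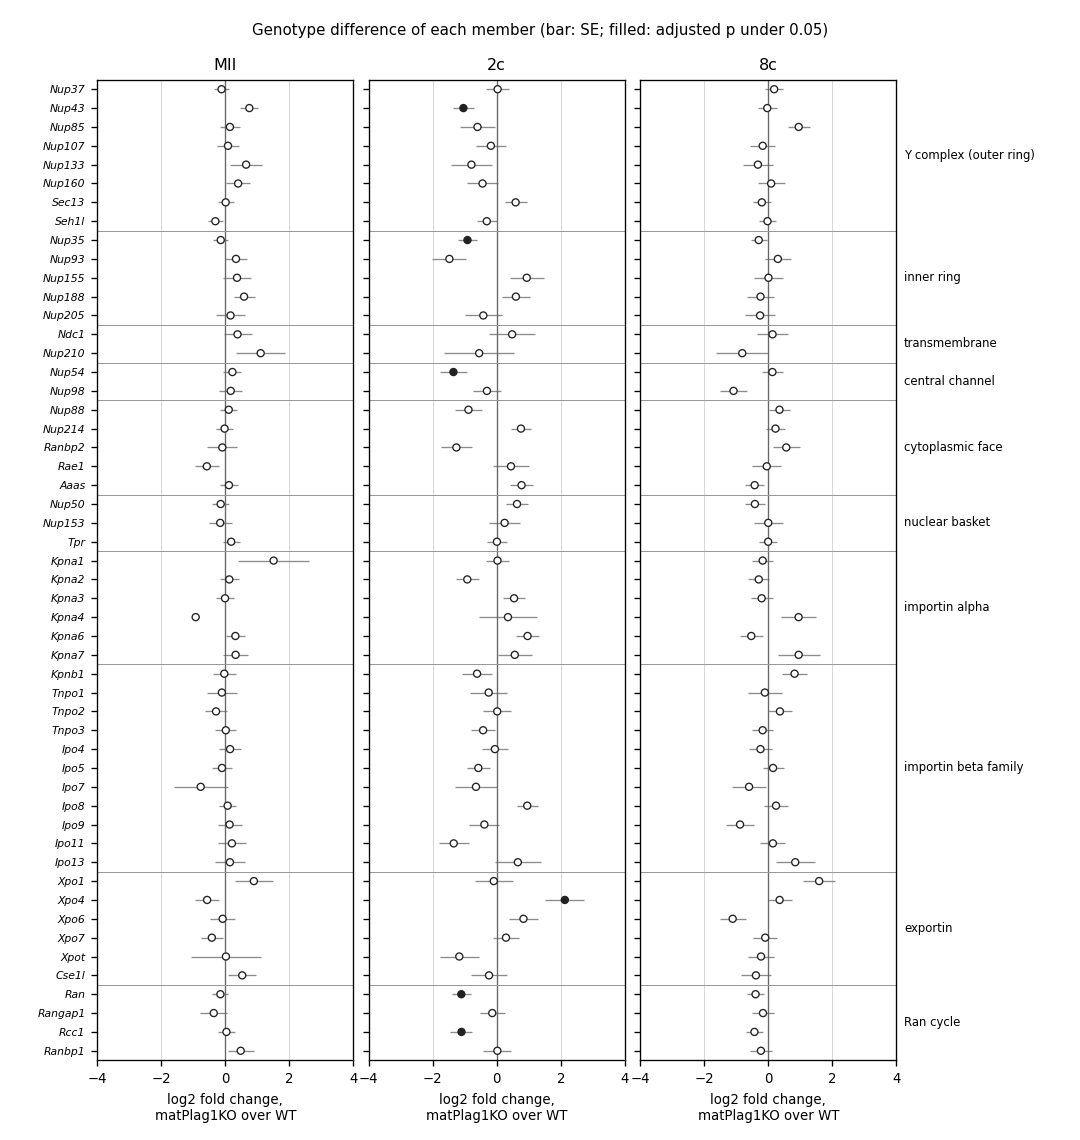
Log2 fold change of matPlag1KO over WT (x axis, TMM scale) of the 52 members (rows, by role) in MII oocytes, 2c and 8c embryos, with the SE as a bar and filled points for an adjusted p under 0.05. Kpna4 at MII has no bar, as one of its groups is at 0 counts. Filled points are found at 2c alone, 5 left of 0 (Ran, Rcc1, Nup43, Nup54, Nup35) and Xpo4 right of it.

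These calls rested on few embryos. Leaving out each 2c library in turn left between 1 and 7 members called. Of the 22 fits, Ran and Xpo4 were called in 21 each, Nup35 and Nup54 in 13, Rcc1 in 10 and Nup43 in 8. The number was 1 (Xpo4) without WT replicate 6, 2 without matPlag1KO replicates 1, 2 or 8, and 3 without matPlag1KO replicates 10, 13 or 14 or without WT replicates 3 or 8. With the 12 excluded libraries included, Nup54 and Xpo4 were called, and of all 16578 genes tested there 459 were higher and 309 lower. The medians of the summed 2c and oocyte lists differed between the genotypes as well, with overlapping ranges. The summed 2c list had a median of 274 CPM in WT and 697 CPM in matPlag1KO 2c embryos (ranges 161 to 1164 and 296 to 1727), and the summed oocyte list 1132 and 1957 CPM (ranges 735 to 1938 and 782 to 6999). Their part in the differences above was not tested.

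**Figure D5:**
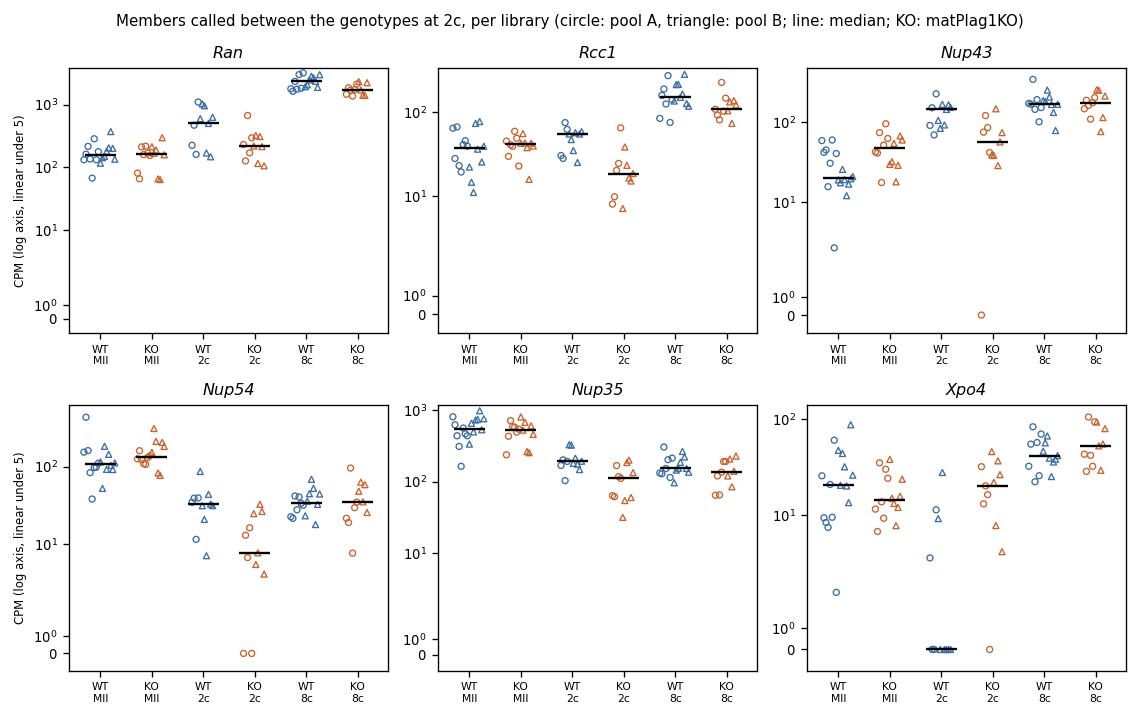
CPM (y axis, logarithmic above 5 and linear below) of the 6 members called between the genotypes at 2c, in each kept library (circles for pool A, triangles for pool B) of the 6 groups (x axis), with a line at the median. At 2c the matPlag1KO medians of Ran (219), Rcc1 (18.4), Nup43 (56.4), Nup54 (7.70) and Nup35 (111) lie below those of WT, and the WT median of Xpo4 is 0.

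At 8c no member was called in edgeR, against 1.74% of all tested genes. Of the 52, 6 had an unadjusted p under 0.05 (14.3% of all genes), and DESeq2 called 1, Xpo1, the main exportin for proteins with a leucine-rich export signal. Of all genes DESeq2 called 267 higher and 81 lower at 8c. Xpo1 had between 0 and 21.0 CPM in WT (median 11.1) and between 3.81 and 129 CPM in matPlag1KO (median 17.5), a log2 fold change of 1.59 ± 0.51 in edgeR (adjusted p = 0.0780) and 1.77 in DESeq2 (adjusted p = 0.0269). The ranges overlapped, and the matPlag1KO mean was 33.5 ± 38.1 CPM (SD, n = 11). The summed 8c list, of 6 genes, had a median of 1267 CPM in WT (range 536 to 2259) and 495 CPM in matPlag1KO (range 229 to 2097), and its part was not tested. The members called at 2c had differences at 8c from -0.43 ± 0.27 (Rcc1) to 0.35 ± 0.38 (Xpo4).

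The genotype difference at 2c was tested against that at MII for each gene. It differed for Nup43 and Xpo4, 2 of 52 members, and for 3.31% of all genes, with 13 members and 17.7% of all genes at an unadjusted p under 0.05. For Nup43 the difference of differences was -1.79 ± 0.43 (adjusted p = 0.00853), from 0.75 in oocytes to -1.04 at 2c. For Xpo4 it was 2.69 ± 0.71 (adjusted p = 0.0147), from -0.57 ± 0.36 to 2.12. Both had the same sign in each pool and were called in pool B alone and by DESeq2, but not in pool A. With spike-in totals Xpo4 was no longer called (2.36, adjusted p = 0.0540), and without any library left out Nup43 was not (-1.43, adjusted p = 0.0603). Ran (-0.96, adjusted p = 0.151), Rcc1 (-1.14, adjusted p = 0.121), Nup54 (-1.58, adjusted p = 0.0565) and Nup35 (-0.77, adjusted p = 0.236) did not pass. Between 2c and 8c no member was called, against 2.3% of all genes, with 14 at an unadjusted p under 0.05 (17.9% of all genes) and 4 called by DESeq2 (Aaas, Kpna6, Ranbp2 and Xpo6). Of all genes DESeq2 called 360 with a positive and 294 with a negative difference of differences.

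A list of 37 further genes of the pathway was examined alongside, of which 32 had a row and 31 were tested. At 2c, Nxt1, a cofactor of mRNA export, was lower in matPlag1KO (-1.40 ± 0.43, adjusted p = 0.0408), and its difference at 2c differed from that at MII (-2.18 ± 0.56, adjusted p = 0.0139). At 8c, Ddx19a, an RNA helicase of the cytoplasmic face, was higher (1.31 ± 0.37, adjusted p = 0.0423). None of the 31 was called at MII in edgeR, with 2 at an unadjusted p under 0.05. From MII to 2c in WT 17 fell and 3 rose (54.8% and 9.68%, against 51.3% and 14.1% of all genes), and from 2c to 8c 10 rose and 2 fell (32.3% and 6.45%, against 31.9% and 16.2%), so the shares that fell first and rose later were near those of all genes. Nup210l, a paralogue of Nup210, rose from MII to 2c in WT (2.74 ± 0.69) and in matPlag1KO (2.44 ± 0.69).

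The study lists promoter sites of a motif with a PLAG1 binding site, for genes that it had chosen as lower in matPlag1KO at 2c. It reports that most of these motifs in mouse promoters lie in B1 elements, a family of repeats. A match here can therefore be a copy of that repeat. The windows from 2000 bases before to 500 bases after the start of each gene (mm9) were searched on both strands for the 31-base consensus of the 169 listed sites, with at most 5 mismatches. A match was present for 18 of 52 members (34.6%) and for 4118 of 16511 tested genes (24.9%). Of the 6 members called at 2c, Nup43, Nup35, Nup54 and Rcc1 had a match, and Ran and Xpo4 had none in this window. The site of Nup43 and those of Nup35 at -682 and -206 are on that list, which was drawn up on the same 2c difference, so these matches are no independent evidence and nothing is read from the counts. Sites of Ipo11 at -563 and -1156 are on the list too, although Ipo11 was not called at 2c here. The sites of Nup43, Nup35, Nup54 and Rcc1 are printed against the consensus, with the bases that differ from it in capitals, and each is read on the strand given.
Consensus: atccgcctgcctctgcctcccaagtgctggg
Nup43 (chr10:7387068-7387098, plus strand): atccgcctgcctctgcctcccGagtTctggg
Nup35 (chr2:80478048-80478078, plus strand): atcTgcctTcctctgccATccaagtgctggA
Nup35 (chr2:80478272-80478302, minus strand): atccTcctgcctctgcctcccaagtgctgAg
Nup35 (chr2:80478748-80478778, plus strand): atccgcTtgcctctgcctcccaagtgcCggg
Nup54 (chr5:92865808-92865838, minus strand): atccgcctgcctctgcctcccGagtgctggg
Rcc1 (chr4:131903149-131903179, minus strand): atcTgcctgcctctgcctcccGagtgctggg
Counted from the start of the gene, with negative positions before it, the site of Nup43 lay at -219, in an intron of the neighbouring gene Pcmt1. The sites of Nup35 lay at -906, -682 and -206, in an annotated intron of Nup35. The site of Rcc1 lay at -1499, also in an annotated intron of Rcc1, and that of Nup54 at -1598, outside annotated genes. A match is a description of the letters, and binding was not measured.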

How the data were processed

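Single oocytes and embryos were sequenced from 5′ transcript ends with ERCC spike-in RNA (92 species) in 2 pools of barcoded samples (A and B). The authors joined reads of the same molecular identifier, aligned them to mm9 with TopHat and deposited raw counts per gene without normalization. HOMER is named in the submitters' processing notes. The strand setting of counting is not given in the sources used here, so genes overlapping on opposite strands (Nup88, Seh1l, Tnpo2, Tnpo3 and Tpr here) cannot be separated. No column was left unmatched (0), and no library copied another (lowest chi-square per degree of freedom within a group 3.54).

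Members and lists were chosen with earlier results of these data known. A library was left out where its median CPM was under 1 (12 of 90). A gene was tested where 5 or more kept libraries had 1 CPM or more. A single edgeR 4.0.16 model (R 4.3.3) held all 6 groups, with the quasi-likelihood test and Benjamini-Hochberg adjustment over 16511 genes. Genotypes were compared with TMM factors. Stages were compared with the spike-in total as library size (per 1000 spike-in counts in the text), and the library without a spike-in count took no part. DESeq2 1.42.0, other filters and scalings, and pools were alternatives. Interaction tests took the difference between genotype differences. Members described with values are those called between genotypes or in an interaction, Kpna7, and the 5 highest and 5 lowest called in each WT stage comparison. Xpo1, Tnpo1, Nup160, Nup188, Nup93, Ipo11, other importin alpha genes and the motif and promoter sequences shown were picked after their values were seen. Counting intervals (95%, Clopper-Pearson) and the floor of 3 counts cover counting error only. The fits were tested on simulated counts.

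Oocytes with the same position code in the labels were checked for pairing across pools over 8418 genes. Correlations of deviations from the group means ran from -0.0562 to 0.759 over 14 pairs, and from 0.148 to 0.782 once pool means were removed as well. The replicate block is therefore given as an alternative.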

Additional observations from a re-analysis of the deposited data

Results flagged for a closer look

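The genotype difference of Nup43 was opposite at MII and 2c and differed between these stages in the test of the difference itself (-1.79 ± 0.43 on the log2 scale). Each group's ranges overlapped at both stages. The genotype difference of Xpo4 also differed between the stages (2.69 ± 0.71), and the 2c part of it rests on 9 counts in WT and 50 in matPlag1KO embryos. The groups hold more than 10 libraries each, so no test for a single outlying sample was made.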

How the results depend on the processing

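Of 239 values of described members under alternatives other than leaving out a library, 203 kept direction and side of the threshold, 32 lost the call and 4 reversed. The reversals were all of Kpna7 differences that were not called. They were -0.55 between genotypes at MII in pool B, -0.29 (pool A) and -0.076 (spike-in totals) for the interaction of 2c and MII, and 0.022 (pool A) for that of 2c and 8c. All 34 values kept direction and call with the pool as a term and with no filter on low counts.

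Members called between genotypes at MII numbered 0, but 2 in pool A, 1 in pool B and 2 with the replicate block. Of all genes, 80 were higher and 58 lower in pool A, 367 and 96 in pool B, and 658 and 151 with the block. At 2c the members called numbered 6, but 2 with no library left out, 0 in pool A, 1 in pool B and 1 with spike-in totals, and from 1 to 7 without single libraries. Of all genes, 459 were higher and 309 lower with no library left out, 0 and 0 in pool A, and 150 and 352 in pool B. With spike-in totals 191 genes were higher and 94 lower. At 8c DESeq2 gave 1 member in place of 0. The interaction of 2c and MII gave 2 members, but 1 with no library left out, 0 in pool A and 1 with spike-in totals. That of 2c and 8c gave 0 members, but 4 in DESeq2 and 1 with no library left out. Over all genes the first interaction gave 278 positive and 142 negative calls with no library left out. It gave 18 and 21 in pool A, and 111 and 201 with spike-in totals. The second gave 261 and 127 with no library left out.

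Under TMM scaling, members of WT that changed between MII and 2c numbered 17 rising and 17 falling (7 and 29 on the spike-in scale), and 17 rising between 2c and 8c (29). In matPlag1KO they numbered 17 rising and 15 falling (5 and 37), and then 10 falling (5). With pool A alone WT had 2 rising by 2c, then 12 rising and 2 falling by 8c, and matPlag1KO had 1 rising and 24 falling, then 15 rising. With pool B alone matPlag1KO had 3 falling by 8c. Of all genes in pool A, 1140 rose by 2c in WT, then 2771 rose and 1255 fell by 8c. In matPlag1KO 1298 rose and 6149 fell, then 2556 rose. In pool B 1932 of all genes fell by 8c in matPlag1KO. Each pool holds fewer libraries, and otherwise the cause was not tested. Low counts limit Xpo4 at 2c, Xpot and Kpna4 in oocytes and at 2c, and Kpna1 in oocytes.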
